A study of Mus musculus with 7 samples.

Results

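The genes described here are p53 targets and Bcl2 family genes that set the threshold for cell death. They were chosen as every probe set whose gene symbol in the platform annotation is Trp53, Mdm2, Cdkn1a, Ccng1, Bbc3, Bax, Bcl2, Bcl2l1, Bcl2l11 or Mcl1. A probe set is the group of short probes on an Affymetrix array that together report 1 transcript or a group of related transcripts. Counting only probe sets with 1 symbol, the rule found 29 of the 45101 probe sets of the array, belonging to 8 of the 10 genes. Trp53 and Bax are not analysed here, because the annotation table used gives neither to a probe set as its only symbol. Expression was measured in D3 mouse embryonic stem cells, an established line, in 2 wild type samples and 5 samples of the same line in which calreticulin had been knocked out. No further treatment is named for either group, and the 2 groups differ in the labels by the calreticulin deletion alone. Every sample was a pool of at least 3 cultures and was called a separate biological replicate. Nothing in the labels says whether the knockout samples were of 1 clone, and the tests compare only the spread among these 7 samples.

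p53 is a transcription factor that is stabilised after DNA damage and other stress and then switches on genes for cell cycle arrest, repair and death. Mdm2, itself a p53 target, encodes the ubiquitin ligase that returns p53 to a low level. The Bcl2 family controls the release of cytochrome c from mitochondria: Bcl2, Bcl2l1 (Bcl-x) and Mcl1 hold it back, Bax and Bak1 form the pores, and BH3-only proteins such as those of Bbc3 (Puma) and Bcl2l11 (Bim) tip the balance towards death. Embryonic stem cells divide with a short first gap phase, and they are known for dying readily when their DNA is damaged. Calreticulin binds calcium and helps glycoproteins fold in the endoplasmic reticulum, where several Bcl2 family proteins also reside.

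The feature by which p53 finds its target genes is a response element built of a pair of half-sites, each of 10 bases with the core CNNG. To show such elements beside the genes measured here, the 250 bases before the transcription start in RefSeq (build GRCm38.p6) were searched for 2 adjoining half-sites. The core bases had to be exact and up to 2 other bases of the 20 could differ from the p53 consensus. The consensus reads the same on both strands, so 1 search covers both. All 10 genes had at least 1 start in the table, with 16 starts in all, and the search rule was chosen after these windows had been seen. A match lay before 1 of the 2 starts of Cdkn1a and before the start of Ccng1, each with 1 base off the consensus. Among all 32851 windows of the same length, 0.27% held a match. The 2 windows are printed 5′ to 3′ on the strand of the gene with the matched 20 bases in capitals, Cdkn1a from chr17:29090729-29090978 on the plus strand and Ccng1 from chr11:40755287-40755536 on the minus strand.
Cdkn1a: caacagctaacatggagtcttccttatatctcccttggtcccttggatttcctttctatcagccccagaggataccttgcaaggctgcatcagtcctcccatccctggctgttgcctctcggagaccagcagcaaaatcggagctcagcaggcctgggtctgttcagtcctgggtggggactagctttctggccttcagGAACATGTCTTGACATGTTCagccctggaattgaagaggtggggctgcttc
Ccng1: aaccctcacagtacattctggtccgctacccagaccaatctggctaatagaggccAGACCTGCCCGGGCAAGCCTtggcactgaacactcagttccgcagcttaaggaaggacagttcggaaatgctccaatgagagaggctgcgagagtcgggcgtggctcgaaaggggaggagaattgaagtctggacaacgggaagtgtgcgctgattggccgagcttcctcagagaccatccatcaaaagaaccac
The Cdkn1a match spans bases 51 to 32 before that start, and the Ccng1 match bases 195 to 176. The other 14 windows hold no match under these letters, and elements farther from a start were not searched. They include the window of the second start of Cdkn1a, which lies downstream of the first (chr17:29093519-29093768).

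Signals are intensities on a linear scale from 1 array per sample. The array medians lay between 92.6 and 124.9. Differences are knockout minus wild type of log2(signal + 20.2). Calr, which encodes calreticulin, was measured by its brightest probe set at 11649.8 ± 1146 (SD, n = 2) in wild type samples and at 912 ± 205 (SD, n = 5) in knockout samples. The difference of -3.68 passed the limma test (adjusted p = 0.00595), and all 3 Calr probe sets were lower in all 5 knockout samples. All 12 stem cell markers examined, Pou5f1, Nanog and Sox2 among them, lay above the median of every array. Knockout samples 2 and 3 stood apart from the other 5. Their Pearson correlation over the 27022 tested probe sets was 0.985, beside 0.843 to 0.902 with other samples and 0.92 to 0.972 among the other 5.

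None of the p53 target and Bcl2 family probe sets differed between knockout and wild type cells beyond the spread of the samples. Of the 29, 22 were above the signal filter and were tested, with at least 1 for each of the 8 genes. By limma with Benjamini-Hochberg adjustment over all 27022 tested probe sets, 0 of the 22 passed an adjusted p of 0.05, and 0.0296% of all tested probe sets did. The adjusted p-values of the 22 ran from 0.593 to 0.964. At an unadjusted p under 0.05 the count was also 0 of 22, beside 8.42% of all tested probe sets. In 0 of the 22 did the 5 knockout samples all lie on 1 side of both wild type samples, which held for 13.6% of all tested probe sets (7.8% with the knockout samples higher and 5.85% with them lower). The median difference was 0.06 over the 22, with 13 above 0 and 9 below, and 0.07 over all tested probe sets, of which 44.1% lay below 0. A p above the threshold does not show equal levels. The narrowest 95% interval, that of Mcl1 1437527_x_at, ran from -0.58 to 0.45, and the widest, that of Bcl2l1 1420887_a_at, from -0.94 to 2.33.

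**Figure D1:**
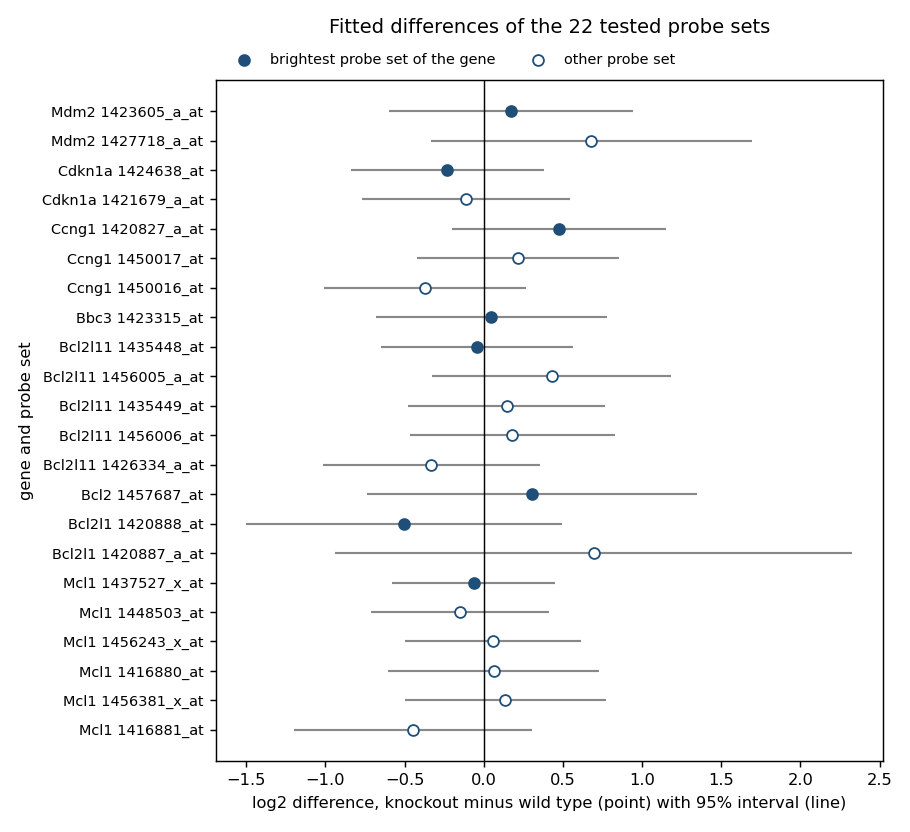
Log2 difference, knockout minus wild type, of the 22 tested probe sets, with the limma 95% interval as a line; filled points are the brightest probe set of a gene. Differences run from -0.50 to 0.69, and the interval of each probe set includes 0.

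Mdm2 was higher in some knockout samples than in both wild type samples, but not in all. With its brightest probe set (1423605_a_at) the signals were 3086 and 4793 in wild type samples 1 and 2, and 5333, 3551, 3288, 3599 and 6786 in knockout samples 1 to 5. Knockout samples 1 and 5 lay above both wild type samples, and the other 3 lay between them. The means were 3939.7 ± 1207 (SD, n = 2) and 4511 ± 1508 (SD, n = 5), a log2 difference of 0.17 (SE 0.34, 95% interval -0.60 to 0.94, limma adjusted p = 0.857).

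A second Mdm2 probe set (1427718_a_at) showed a larger spread. Its signals were 728 and 1112 in wild type samples, and 2515, 1328.5, 1475, 698 and 1872.5 in knockout samples 1 to 5. All knockout samples but sample 4 were above both wild type samples, and sample 4 was the lowest of the 7. The difference was 0.68 (SE 0.45, 95% interval -0.33 to 1.69, limma adjusted p = 0.601). Without knockout sample 4 it was 0.94, with an unadjusted limma p of 0.0285 and an adjusted p of 0.403. In that fit 12.1% of all tested probe sets had an unadjusted p under 0.05. The fit was picked for its small p from those leaving out each sample in turn, and it removes the lowest sample. A Ccng1 probe set also moved when 1 sample was left out, as given below. The remaining Mdm2 probe set (1457929_at) was under the signal filter, at 11.6 to 97.9.

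Cdkn1a encodes p21, the inhibitor of cyclin-dependent kinases through which p53 stops the cell cycle. Its brightest probe set (1424638_at) had signals of 1522 and 1058 in wild type samples, and of 1174, 1018, 910.2, 1176 and 1145 in knockout samples 1 to 5. Knockout samples 2 and 3 were below both wild type samples and the other 3 lay between them. The difference was -0.23 (SE 0.27, 95% interval -0.84 to 0.38, limma adjusted p = 0.754).

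With the other Cdkn1a probe set (1421679_a_at), the wild type signals of 1456 and 826 enclosed all 5 knockout signals, which ran from 873 to 1158. The difference was -0.11 (95% interval -0.77 to 0.54). For both probe sets, wild type sample 1 was the highest of the 7 samples.

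Ccng1 encodes cyclin G1, a p53 target that acts with the phosphatase PP2A on Mdm2. Its brightest probe set (1420827_a_at) had signals of 4070.3 and 9578 in wild type samples, and of 8535, 8620.4, 8395, 8614.5 and 9312 in knockout samples 1 to 5. The knockout samples were close to one another and to wild type sample 2, and wild type sample 1 stood alone below them. The difference of 0.48 (SE 0.30, 95% interval -0.20 to 1.15, limma adjusted p = 0.593) therefore depends on which wild type sample is used. It was -0.14 without wild type sample 1 and 1.09 without wild type sample 2. Each of these fits rests on 1 wild type sample.

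The other Ccng1 probe sets did not share 1 direction. With 1450017_at the wild type signals of 2693 and 4869 again enclosed the knockout signals, which were 4746, 4125, 4141, 3435 and 4764, and the difference was 0.22 (95% interval -0.42 to 0.86). With 1450016_at the signals were 3984 and 5129 in wild type samples and 4570.4, 2762, 2822, 3454 and 4188 in knockout samples. Knockout samples 2, 3 and 4 were there below both wild type samples, and the difference was -0.37 (95% interval -1.01 to 0.27, limma adjusted p = 0.636). Wild type sample 1 was thus the lowest of the 7 with 2 of the 3 probe sets, and knockout samples 2 and 3 were the lowest with the other.

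**Figure D2:**
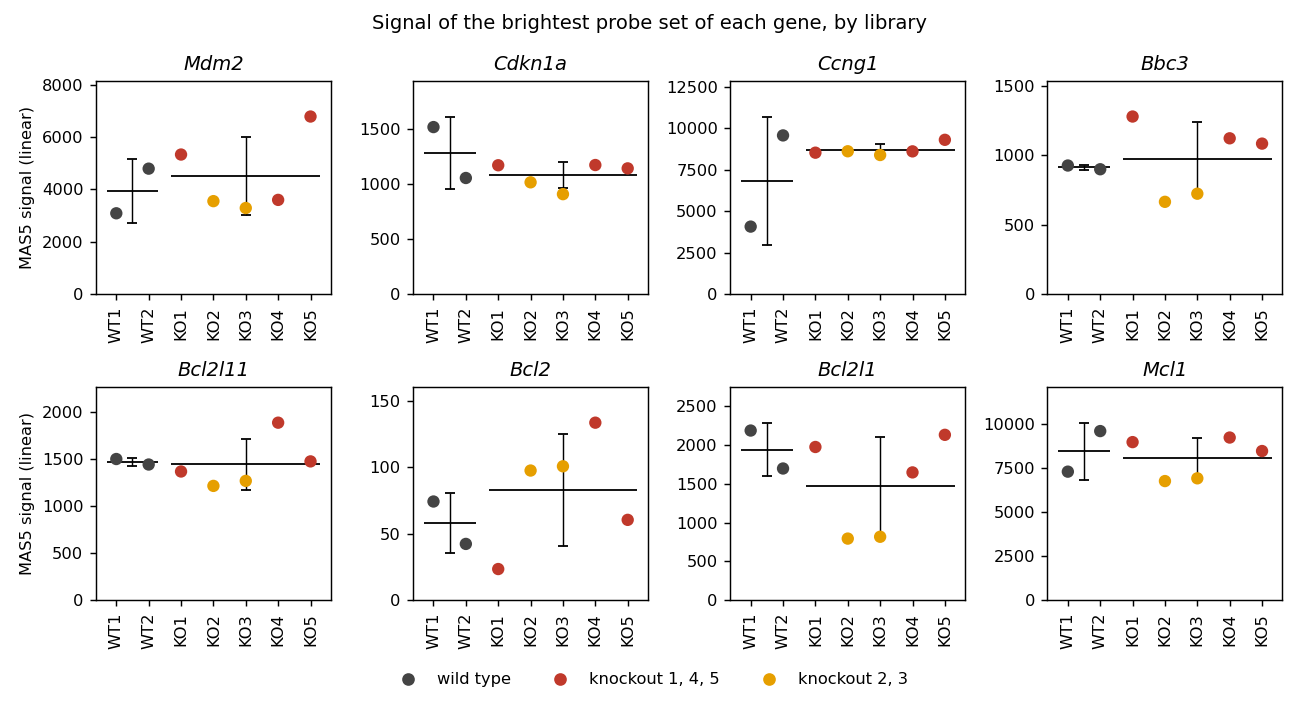
MAS5 signal (linear scale, from 0) of the brightest probe set of each of the 8 genes in wild type samples 1 and 2 (WT) and knockout samples 1 to 5 (KO); bars give the mean ± SD of each group. The 2 groups overlap in every gene, and knockout samples 2 and 3 are the lowest pair for Cdkn1a, Bbc3, Bcl2l11, Bcl2l1 and Mcl1.

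Among the genes for death promoters, Bbc3 split the knockout samples into those above and those below the wild type pair. Its single probe set (1423315_at) had signals of 926 and 899.5 in wild type samples, and of 1279.6, 665, 723, 1123 and 1084 in knockout samples 1 to 5. Knockout samples 1, 4 and 5 were above both wild type samples, and knockout samples 2 and 3 were below both. Over all 5, the mean was 975 ± 268 (SD, n = 5) beside 913 ± 19.0 (SD, n = 2), a difference of 0.05 (SE 0.32, 95% interval -0.68 to 0.78, limma adjusted p = 0.964). Without knockout samples 2 and 3 the difference was 0.34 (95% interval -0.21 to 0.89, adjusted p = 0.832). Bbc3 was then the 1 probe set of the 22 whose groups did not overlap, where 20.3% of all tested probe sets did not (11.4% higher and 8.89% lower).

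Bcl2l11 was represented by 5 tested probe sets, with differences on either side of 0. The brightest (1435448_at) had signals of 1502 and 1444 in wild type samples, and of 1369, 1216, 1269, 1889 and 1477 in knockout samples 1 to 5. Knockout samples 1, 2 and 3 were below both wild type samples, sample 4 was above both and sample 5 lay between them. The difference was -0.05 (SE 0.27, 95% interval -0.65 to 0.56, limma adjusted p = 0.958).

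The Bcl2l11 probe set with the largest positive difference (1456005_a_at) had 727 and 475 in wild type samples, and 891, 1000.1, 845, 874 and 492 in knockout samples. Knockout samples 1 to 4 were above both wild type samples, and sample 5 lay between them (difference 0.43, 95% interval -0.33 to 1.18, limma adjusted p = 0.644). At the other end, 1426334_a_at differed by -0.33 (95% interval -1.02 to 0.35). The remaining probe sets, 1435449_at and 1456006_at, differed by 0.14 and 0.18.

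For the survival gene Bcl2l1, knockout samples 2 and 3 lay apart from the other 3. Its brightest probe set (1420888_at) had signals of 2184 and 1695.5 in wild type samples, and of 1973, 793, 816, 1645 and 2129 in knockout samples 1 to 5. Knockout samples 2 and 3 were far below the other 5 samples, whose lowest signal was 1645, and samples 1 and 5 lay between the wild type samples. The group means were 1939.95 ± 346 (SD, n = 2) and 1471 ± 633 (SD, n = 5), and the difference was -0.50 (SE 0.44, 95% interval -1.50 to 0.49, limma adjusted p = 0.675). Without knockout samples 2 and 3 it was -0.01 (95% interval -0.58 to 0.55, adjusted p = 0.993).

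A dimmer Bcl2l1 probe set (1420887_a_at) went the other way, with the widest interval of the 22. Its signals were 142 and 19.2 in wild type samples, and 372, 42.1, 143, 54.4 and 101 in knockout samples. The wild type samples lay at the lowest and the third highest place, with knockout samples 2, 4 and 5 between them, and the difference was 0.69 (95% interval -0.94 to 2.33). Of the remaining Bcl2l1 probe sets, 1426050_at was at 8.8 to 42.3 and 1426191_a_at at 2.4 to 6.3 over the 7 samples, both under the signal filter.

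Mcl1 encodes a survival protein with a short lifetime on which early embryos depend. Its 6 tested probe sets differed by -0.45 to 0.14. The brightest (1437527_x_at; probes of the x type can also bind related transcripts) had signals of 7302 and 9608 in wild type samples, and of 8981, 6767, 6923, 9241 and 8474 in knockout samples 1 to 5. Knockout samples 2 and 3 were below both wild type samples and the other 3 lay between them (difference -0.06, SE 0.23, 95% interval -0.58 to 0.45, limma adjusted p = 0.924).

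The lowest Mcl1 difference came from 1416881_at, where the signals were 3292 and 3356 in wild type samples, and 3721, 1787, 1781, 2380.0 and 2997 in knockout samples 1 to 5. All knockout samples but sample 1 were below both wild type samples, and samples 2 and 3 were the lowest. That difference was -0.45 (95% interval -1.20 to 0.30, limma adjusted p = 0.631). With 1448503_at the wild type signals were 8670.5 and 8632 and the knockout signals 9824, 6335, 6189.6, 7958 and 9369, a difference of -0.15. The other 3 probe sets, 1416880_at, 1456243_x_at and 1456381_x_at, differed by 0.06, 0.06 and 0.14.

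Bcl2 was dim. Its brightest probe set (1457687_at), the 1 of 5 above the signal filter, had signals of 74.2 and 42.3 in wild type samples, and of 23.4, 97.5, 100.7, 133.5 and 60.4 in knockout samples 1 to 5. Knockout sample 1 was the lowest of the 7, samples 2, 3 and 4 were above both wild type samples and sample 5 lay between them. The difference was 0.30 (SE 0.46, 95% interval -0.74 to 1.34, limma adjusted p = 0.808). The 4 Bcl2 probe sets under the filter had signals of 11.6 to 96.5. Detection calls were not used here, so which of these values exceed background is not known.

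Knockout samples 2 and 3 were the lowest 2 of the 7 samples in 9 of the 22 tested probe sets, where this held for 21% of all tested probe sets. The 9 belong to 6 genes: Cdkn1a, Ccng1, Bbc3 and Bcl2l1 with 1 probe set each, Bcl2l11 with 2 and Mcl1 with 3. Samples 2 and 3 were the highest 2 in 0 of the 22, where this held for 27% of all tested probe sets. Many of the 22 are bright, and shares among equally bright probe sets were not computed. Low values there were not limited to these genes. Against the wild type mean, medians of related lists described below were -0.45 and -0.51 (apoptosome and caspases), -0.47 and -0.52 (targets of cell death). They were -0.40 and -0.52 (other Bcl2 family), -0.07 and -0.03 (targets of arrest and repair) and -0.05 and 0.02 (p53 regulators). Against the mean of knockout samples 1, 4 and 5, the mean of the 2 samples stood at -1.22 on the log2 scale for Bcl2l1 (1420888_at), at -0.74 for Mcl1 (1416881_at) and at -0.73 for Bbc3, the lowest 3 of the 22. It was above 0 for Bcl2 (1457687_at, 0.55), Bcl2l11 (1456005_a_at, 0.33) and Cdkn1a (1421679_a_at, 0.030), and below 0 for the rest. The share of all tested probe sets below 0 was not computed, and the 22 include several probe sets each of Mcl1 and Bcl2l11. The signs therefore cannot be read as particular to these genes. This is a description of these libraries, chosen after their values were seen, and no test of it was made.

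Other measures moved with the same 2 samples. Pou5f1, the stem cell transcription factor gene, was at 4891 and 4687 in them and at 8770.3 to 11726 in the other 5, and 5 of the 12 stem cell markers had their 2 lowest signals there. Another 2 of the 12 had their 2 highest there, Tdgf1 at 14287 and 15929 (10428 to 11866.5 in the others) and Fgf4 at 6215 and 5809 (2366 to 5325.5). Feeder fibroblasts can be carried over with stem cells, and the summed signal of 11 fibroblast markers was 3977 and 4083.5 in the 2 samples, 1365 to 1684 in wild type samples and 889.8 to 1355 in the other knockout samples. Of these markers, 3 lay above the median of every array, 6 of 11 had their 2 highest signals there, and 0 were listed at 0, with a lowest signal of 11.7 in any sample. Col1a2 gave the largest part of that sum, at 1519 and 1443 in the 2 samples and 159 to 375 in the others. Col6a3 (131.5 and 165) and Thy1 (310 and 292) lay there within the range of the others. The sum over 9 primitive endoderm markers was 4454 to 4504 in the 2 samples, 2017 to 4175 in wild type samples and 1636 to 2914 in the other knockout samples. Most of it came from Lama1, a laminin gene, at 3162 and 3379.9 in the 2 samples. Lama1 and Pdgfra were the 2 of 9 with their highest signals there, and Dab2, at 356.5 and 309, had its lowest. The sum over 7 trophoblast markers (3728 to 4158) lay within the range of the others. Control probe sets at both ends of Actb report RNA integrity and labelling. Their log2 ratio, 3′ over 5′, was 0.79 and 0.89 in the 2 samples beside 1.46 to 2.08 elsewhere. The same ratio for Gapdh was -0.31 and -0.27 in the 2 samples beside -0.17 to 1.32 elsewhere. Both ratios were highest in wild type sample 2 (Actb 2.08, Gapdh 0.77) and knockout sample 4 (Actb 1.94, Gapdh 1.32). The part of these measures in the lower signals was not tested. In bulk RNA, fewer cells of a type and less RNA per cell cannot be told apart.

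**Figure D3:**
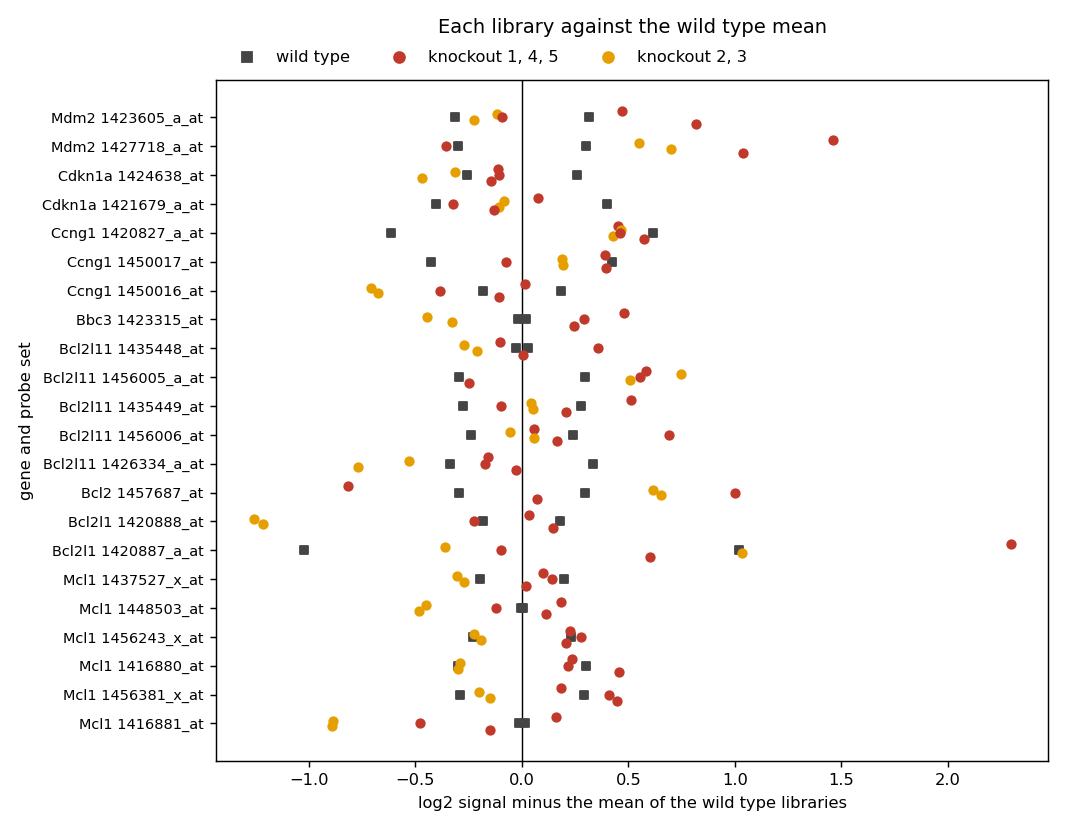
Log2 signal of each sample minus the mean of the 2 wild type samples (squares, which lie at equal distance on either side of 0) for the 22 tested probe sets. Knockout samples 2 and 3 (orange) lie lowest for 9 of them, by the most for Bcl2l1 1420888_at, and a wide gap between the squares marks Ccng1 1420827_a_at and Bcl2l1 1420887_a_at.

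Without knockout samples 2 and 3, 0 of the 22 passed the limma test either (adjusted p from 0.825 to 0.993), and 0.0185% of all tested probe sets did. At an unadjusted p under 0.05 the count was again 0 of 22, beside 5.64%. The differences were then 0.40 for Mdm2, -0.12 for Cdkn1a, 0.50 for Ccng1, 0.34 for Bbc3, 0.09 for Bcl2l11, 0.08 for Bcl2, -0.01 for Bcl2l1 and 0.09 for Mcl1, each with the brightest probe set. Their median over the 22 moved from 0.06 to 0.22, and that of all tested probe sets from 0.07 to 0.03. Of these 8, Bcl2l11 and Mcl1 changed sign, with intervals of -0.49 to 0.66 and -0.36 to 0.53.

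To set the 8 genes among the rest of the pathway, 5 lists of related genes were examined with 1 probe set per gene. They held 78 different tested genes. None of the 78 passed the threshold (lowest limma adjusted p = 0.575), which 0.0229% of all tested genes did. At an unadjusted p under 0.05 there were 7, and in 14 of 78 the groups did not overlap, 9 higher and 5 lower in knockout samples. Among all 13120 tested genes the groups did not overlap in 13.8%, with 6.41% higher and 7.44% lower, and 7.6% had an unadjusted p under 0.05. The median difference of the 78 was -0.03, and 50.3% of all tested genes lay below 0.

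Upstream of p53, 0 of 16 regulators and damage kinases were called and their median difference was 0.10. Mdm4, which encodes the partner of Mdm2 in holding p53 inactive, had the largest difference. Its brightest probe set (1460542_s_at) was at 493.5 and 1490.0 in wild type samples, and at 1983, 2684, 3424, 1857 and 2223 in knockout samples 1 to 5. All 5 knockout samples were above both wild type samples, which were far apart from each other, and the difference was 1.44 (95% interval 0.49 to 2.39, limma adjusted p = 0.575). The other 2 tested Mdm4 probe sets were at 0.22 and -0.07, with overlapping groups. Cdkn2a, the locus of the Mdm2 inhibitor Arf, was dim and also did not overlap, at 72.2 and 78.3 in wild type and 97.5 to 161.4 in knockout samples (0.57, adjusted p = 0.575).

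Among 24 p53 targets of arrest, repair and metabolism, 0 were called, 12 lay above 0 and 12 below, and the median was 0.05. Without overlap, 2 were higher and 2 lower. The higher ones were Ddb2, a gene of nucleotide excision repair (1.12), and Polk, a translesion DNA polymerase gene (1.10). The lower ones were Rprm, an arrest gene (-0.81), and Tigar, a regulator of glycolysis (-0.78). Each had a limma adjusted p of 0.575. For Tigar all 3 tested probe sets were lower without overlap (-0.78, -0.71 and -0.33). The second Ddb2 and Polk probe sets overlapped between the groups, at 0.59 and 0.41.

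Of 11 tested p53 targets that act in cell death, 0 were called and the median was -0.08. Eda2r, a receptor gene of the X chromosome, was at 452 and 983 in wild type samples and at 1035 to 2823 in knockout samples (1.32, 95% interval 0.27 to 2.38, limma adjusted p = 0.575). Aen, an apoptosis-enhancing nuclease gene, stood at -0.78 (adjusted p = 0.575) and Siva1 at -0.43 (adjusted p = 0.583), both without overlap at their brightest probe set. The other tested probe sets of these 2 overlapped, 3 of Aen at -0.49 to 0.29 and 3 of Siva1 at -0.35 to 0.23.

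In the rest of the Bcl2 family, 0 of 14 tested genes were called, 5 lay above 0 and 9 below, and the median was -0.13. The largest differences of the list were negative, those of Bok (-0.83) and Bak1 (-0.75), whose groups overlapped. The groups did not overlap in 2 of the 14, Hrk and Bmf, both higher. Both encode BH3-only proteins, as do Bik (-0.65), Bid (-0.30), Bad (-0.11) and Pmaip1 (-0.08) of the same list, whose groups overlapped. Hrk was at 128.5 and 124.4 in wild type samples and at 151.4 to 268.6 in knockout samples (0.56, limma adjusted p = 0.575). Bmf was at 370.2 and 360.2 beside 391 to 584 (0.42, adjusted p = 0.587). A second Hrk probe set overlapped (0.21).

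Downstream, 0 of 17 genes of the apoptosome, the caspases and their inhibitors were called, with a median of -0.06. Xiap, which encodes a direct caspase inhibitor, was at 768 and 1791.5 in wild type samples and at 1848.5 to 3151 in knockout samples with its brightest probe set (0.995, 95% interval 0.14 to 1.85, limma adjusted p = 0.575). Its other 2 tested probe sets were at 0.63, with overlap, and at -0.28, lower without overlap. Birc5, the survivin gene, was lower without overlap at -0.85 (adjusted p = 0.575), and Casp2, the gene of an initiator caspase, higher at 0.29 (adjusted p = 0.683). The lowest difference of the 17 was that of Endog, whose groups overlapped (-0.99, 95% interval -1.95 to -0.03, limma adjusted p = 0.575).

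**Figure D4:**
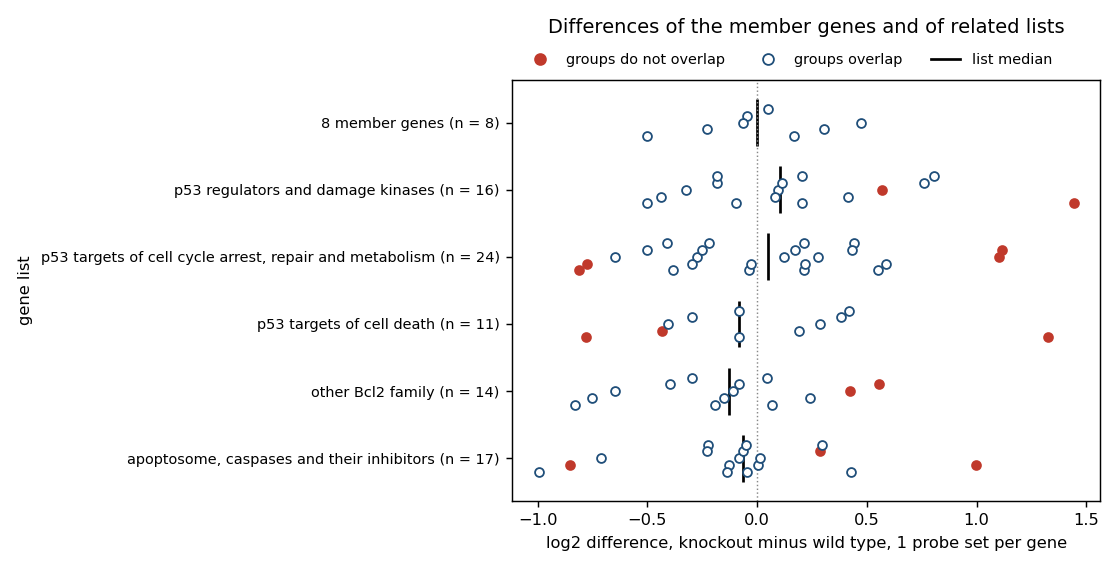
Log2 difference, knockout minus wild type, of the 8 genes and of 5 related lists, 1 probe set per gene; filled red points are genes whose groups do not overlap and black lines are list medians. List medians lie between -0.13 and 0.10, and no point passed the limma test.

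Leaving out knockout samples 2 and 3 changed the size of several of these differences. Their groups cannot come to overlap when samples are left out, so only the sizes are given. Without the 2 samples Mdm4 stood at 1.21, Polk at 1.01, Eda2r at 0.88, Xiap at 0.74, Ddb2 at 0.56, Rprm at -0.64, Birc5 at -0.35, Tigar at -0.32 and Aen at -0.30. Cdkn2a stood at 0.40, Hrk at 0.39, Bmf at 0.35, Casp2 at 0.22 and Siva1 at -0.24. None of the 5 lists then had a called gene, and their medians ran from 0.01 to 0.19.

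The pattern of a gene over the 7 samples was compared with that of all other 13119 tested genes for the 4 genes with the widest range. Likeness was the root mean square difference of log2 values after each gene was centred on its own mean. For Ccng1 (range 1.23) the nearest were Ttk (0.059), Ankrd13c (0.066) and Vps54 (0.069), which share the low value of wild type sample 1: Ttk was at 1161 there and at 2427 to 2819.8 in the other 6. For Bcl2l1 (range 1.44) they were Smap2 (0.097), Smad1 (0.097) and Dynlrb1 (0.11), which share the low values of knockout samples 2 and 3: Smad1 was at 529 and 561 there and at 1044 to 1328 elsewhere. For Mdm2 (range 1.13) they were Hsdl1, Zbtb10 and Klhl9 (0.11 each), and for Bcl2 (range 1.82) Mcoln3 (0.15), Mthfd2 (0.17) and Adgrg1 (0.17).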

How the data were processed

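Total RNA of 7 samples was hybridised to Affymetrix Mouse 430 2.0 arrays, 1 array per sample. The deposited intensities, 1 linear signal per probe set, were computed by the authors; the submitters' processing notes name MAS5, without version or settings. MAS5 scales each array as a whole, so each signal depends on the other probe sets of that array. Groups and replicate numbers come from the sample titles.

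Signals were taken as log2(signal + 20.2), the pseudocount being the 20th percentile of all values, which understates differences of dim probe sets. After 64 control probe sets were set aside, the 27022 probe sets whose mean exceeded the 40th percentile were tested with limma 3.58.1 (R 4.3.3; lmFit, eBayes with a trend, two-sided, Benjamini-Hochberg) for 2 wild type against 5 knockout samples, with no covariate. The number of arrays limits the precision. The script was tested on simulated data. Gene symbols are those of the platform annotation, with 1 symbol for 34958 probe sets, several for 932 and none for 9211. A gene in a list is represented by its brightest probe set with 1 symbol. Figures were drawn with matplotlib 3.10.9.

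Named genes are all 8 genes of the rule, Calr, and from each list genes past the threshold. From each list, up to 4 with the largest difference whose groups do not overlap are named too. A few list genes with overlapping groups are given beside them. The members, lists and alternatives were chosen with earlier results of these data known. List genes that the annotation used gives to no probe set as its only symbol are not analysed here. Alternatives were other filters and pseudocounts, 2 normalizations, no variance trend, array weights, 1 probe set per gene, a replicate block, leaving out each sample, and knockout samples 2 and 3 left out or as a batch term.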

Additional observations from a re-analysis of the deposited data

Results flagged for a closer look

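Over 22 tested probe sets, the highest or lowest of the 5 knockout samples was compared with its neighbour. The gap between them, as a share of the whole range of the 5, was taken on the log2 scale of the tests. This share passed the critical value of 0.71 in 2, where chance passes it in about 1 of 20. The signals printed below are linear, so the shares cannot be read from them directly. For Ccng1 (1420827_a_at) the share was 0.744: knockout sample 5, at 9312, lay above the other 4 at 8395 to 8620.4, a narrow range. For Bcl2l11 (1456005_a_at) it was 0.76: knockout sample 5, at 492, lay below the other 4 at 845 to 1000.1 and near wild type sample 2 at 475.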

How the results depend on the processing

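None of the genes' probe sets was called under any of the 19 alternatives (22 were tested in most, 29 without the filter, 18 with it at the 60th percentile and 8 with 1 probe set per gene), and the lowest adjusted p among the 8 genes' brightest probe sets was 0.186. Leaving out knockout samples 2 and 3 and giving them a batch term yield the same differences, which are counted under both. Of the 19 alternatives, 4 leave a difference as it is. Under the other 15, of 120 differences 104 kept their direction and 16 changed sign, and none passed the threshold. Leaving out 1 sample at a time gave ranges of -0.15 to 0.49 for Mdm2, -0.49 to 0.029 for Cdkn1a, -0.14 to 1.09 for Ccng1, -0.060 to 0.17 for Bbc3, -0.15 to 0.011 for Bcl2l11 and -0.26 to 0.13 for Mcl1, and of 0.0072 to 0.60 for Bcl2 and -0.68 to -0.32 for Bcl2l1, which kept their signs. Bbc3 turned to -0.041 with quantile normalization and -0.12 with median centring, and Mcl1 to 0.095 with quantile normalization. Without knockout samples 2 and 3, or with them as a batch term, Bcl2l11 stood at 0.085 and Mcl1 at 0.086. Median centring moved the median of all tested probe sets from 0.07 to -0.10 and that of the 22 from 0.06 to -0.11, with 14 of 22 below 0. Quantile normalization moved the median of all tested probe sets to -0.03 and left that of the 22 at 0.06. The cause of these changes was not tested. Over all probe sets 8 were called. The count was 5 without the filter, 4 with it at the 60th percentile, 2 with 1 probe set per gene, 5 without knockout samples 2 and 3, and 0 to 7 when 1 sample was left out: 0 without either wild type sample, 4 without knockout sample 1 and 5 without knockout sample 4 or 5. With the replicate number as a block it was 15, and Bcl2 turned to -0.10. Nothing in the labels says whether samples with the same number were handled together. Their deviations from the group means correlated at 0.109 for number 1 and -0.00979 for number 2. With 2 wild type samples the wild type deviations mirror each other, so these values cannot settle it. Detection calls were not used here, and the 7 probe sets under the filter have values only.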
